A study of Homo sapiens with 6 samples.

Results

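Retained-intron transcripts are annotated isoforms that keep intronic sequence relative to the coding transcripts of their gene. Of 251612 transcripts quantified here and found in GENCODE release 44, 34045 carry the transcript type retained_intron, against 88747 that are protein_coding. They belong to 10132 of 62252 genes. The comparison below rests on the 9606 genes that have transcripts of both types, which hold 33085 of the retained-intron transcripts. For each gene, the retained-intron share is the TPM of its retained-intron transcripts as a percent of its retained-intron plus protein-coding TPM, where TPM is an abundance scaled for transcript length and library total.

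The libraries came from K562, an established human erythroleukemia cell line, to ask how loss of PCBP1 changes the transcriptome. Cells of both groups were infected with pLKO.1 lentivirus made in HEK293T cells in the presence of polybrene, and infected cells were selected with puromycin before collection. The shCtrl cells carried a hairpin RNA against luciferase and the shPCBP1 cells a hairpin against PCBP1, with 1 hairpin per target and 3 poly-A RNA libraries per group. The labels do not say whether the 3 libraries of a group are separate transductions or cultures, so p-values measure the spread between these libraries, which may be technical.

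The normalized counts of PCBP1 were 40566, 38409 and 37799 in shCtrl against 6625, 7277 and 7221 in shPCBP1, which is 18.1% of the shCtrl level (log2 fold change -2.47, SE 0.0439, DESeq2). Libraries held between 67066747 and 140522444 estimated counts. The 3 shPCBP1 libraries (67066747 to 85121124) and shCtrl replicate 2 (83033656) were the shallower ones, so values of rare transcripts are least precise there. All 8 K562 markers examined were at 36.6 TPM or more in every library, and the summed level of the 3 HEK293T markers was between 0.192 and 0.971 TPM. Sums of other lists were between 1.36 and 3.225 TPM for B cell and 4.57 and 8.19 TPM for fibroblast markers. The 3 epithelial markers summed to between 810 and 872 TPM. T cell markers summed to between 46.55 and 73.86 TPM, nearly all from CD3D. What the epithelial and T cell values reflect was not tested. In bulk RNA, fewer cells of a type and less RNA per cell cannot be told apart.

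Introns are removed from pre-mRNA by the spliceosome, which recognises a 5′ splice site, a branch point followed by a pyrimidine-rich stretch, and a 3′ splice site that ends in AG. An intron that stays in a polyadenylated RNA usually keeps that RNA in the nucleus or exposes it to nonsense-mediated decay, so retention can lower the amount of productive mRNA without a change in transcription. Erythroid cells are known for extensive intron retention late in their maturation. PCBP1 is a KH-domain protein that binds C-rich RNA, and such stretches lie in the pyrimidine tracts of many introns.

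The ends of 8 introns whose transcripts gained in share are printed first, because the results below turn on these genes. Each is the last 30 bases of a whole intron up to its 3′ splice site, read 5′ to 3′ from GRCh38 on the strand of the gene, with capitals marking runs of 3 or more C. The first 4 follow the rule for called genes. The next 4 were chosen after their values were seen, from genes called with whole-intron transcripts. They do not stand for all such genes. Both SARS2 introns and the CLPTM1L intron, whose shares also rose, have no run of 3 C in their last 30 bases and are not printed.
DPP7 (chr9:137114577-137114606, minus strand, intron of 70 bases): CCCgcctctgaggttcgcgtCCCCCCacag
DPP7 (chr9:137114383-137114412, minus strand, intron of 80 bases): gcaCCCtcgcctcatccgCCCtCCCCacag
FASN (chr17:82080591-82080620, minus strand, intron of 101 bases): catgctgagtgCCCggcactgccattgcag
ACADVL (chr17:7223103-7223132, plus strand, intron of 267 bases): ccacagcgggatgtgtggaCCCtcttccag
TRMT112 (chr11:64316969-64316998, minus strand, intron of 89 bases): gtgctcagctctgtCCCtCCCtgCCCgcag
WDR46 (chr6:33279375-33279404, minus strand, intron of 122 bases): gcctgtgtcctCCCCgtctccggtCCCCag
MFSD10 (chr4:2932759-2932788, minus strand, intron of 347 bases): CCCtgcctcttggCCCCtgCCCCtgggcag
ANKRD13B (chr17:29607956-29607985, plus strand, intron of 108 bases): gCCCtgtgaccttgcctcgCCCtCCCCCag

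For contrast in level, 4 introns of genes whose retained-intron level fell are printed in the same way, also chosen after their values were seen. Level and share are different measures: the share of SELENBP1 rose by 20.35 points (edgeR adjusted p 0.000357, not called by limma). The last entry is the second whole intron of the ANKRD13B transcript, which has a T-rich end.
SELENBP1 (chr1:151369190-151369219, minus strand, intron of 252 bases): gggggagcaccacctctCCCCgcatcctag
AKAP8L (chr19:15403556-15403585, minus strand, intron of 102 bases): tagcgccagtgccgattccgttttatccag
HDAC7 (chr12:47784218-47784247, minus strand, intron of 477 bases): aaCCCtttctgacctggcatcttaCCCCag
ZNF316 (chr7:6642352-6642381, plus strand, intron of 419 bases): gCCCgtcactggcgtccatctgcatttcag
ANKRD13B second intron (chr17:29614233-29614262, plus strand, intron of 543 bases): acatttttttttttttttttttgtgatcag

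The annotation type does not by itself mean that a whole intron is kept. Of 33057 retained-intron transcripts that could be set beside coding transcripts of their gene, 11407 (34.5%) have an exon that spans a whole intron of a protein-coding transcript. The other 21650 hold no whole intron, and 21446 of these have some bases outside the coding exons, such as a longer exon end or a fragment that stops inside an intron. Transcripts with a whole intron were longer, with a median of 2151 bases against 703. Their 13932 distinct introns had a median length of 317 bases, and 97.8% began with GT and ended with AG. In these libraries 7087 of the retained-intron transcripts were listed at 0 TPM throughout and 15791 were above 0 in all 6 libraries.

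Retained-intron transcripts as a class took an overlapping portion of the transcriptome in both groups. They held 5.19%, 5.33% and 4.97% of TPM in the shCtrl libraries and 4.97%, 4.95% and 5.11% in the shPCBP1 libraries. The groups overlapped, and the difference of -0.151 percentage points gave p = 0.3 in an exact two-sided permutation test, whose smallest possible p with 3 against 3 is 0.1. As a percent of estimated counts the class was at 4.78, 4.93 and 4.52 in shCtrl and 4.34, 4.28 and 4.46 in shPCBP1 (exact permutation p = 0.1). On that scale every shPCBP1 library was below every shCtrl library. Transcripts with a whole intron held 1.62%, 1.65% and 1.53% of TPM in shCtrl against 1.55%, 1.52% and 1.58% in shPCBP1 (exact permutation p = 0.3). The median share over the 6178 genes tested was 13.2%, 13.7% and 12.5% in shCtrl and 11.7%, 11.7% and 12.3% in shPCBP1 (exact permutation p = 0.1), with no overlap between the groups. Other transcript types moved beside it without overlap: lncRNA transcripts went from between 3.47% and 3.56% of TPM in shCtrl to between 3.23% and 3.32% in shPCBP1, and nonsense-mediated decay transcripts from between 2.12% and 2.16% to between 2.21% and 2.24% (exact permutation p = 0.1 for each). Their part in the lower median share was not tested.

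**Figure D1:**
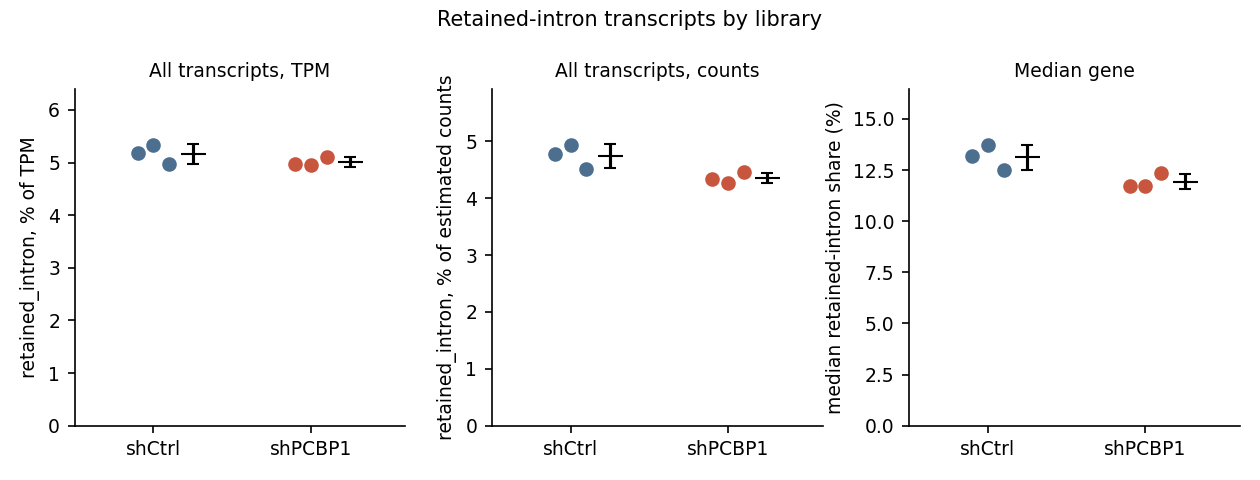
Percent of TPM in retained-intron transcripts and related measures (y axes, %, starting at 0) for each of the 3 shCtrl and 3 shPCBP1 libraries (points), with the group mean as a bar. The percent of TPM overlaps between groups, while the median share over genes sits at 12.5% to 13.7% in shCtrl and 11.7% to 12.3% in shPCBP1.

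Single genes were then compared with limma on the log2 ratio of retained-intron to protein-coding TPM, each with 0.1 TPM added. Genes needed a mean of at least 10 estimated counts in each class, which 6178 of the 9606 genes met and 3428 did not. A gene was called at a Benjamini-Hochberg adjusted p under 0.05 and a difference in mean share over 5 percentage points. Only 8 genes were called. CREB1, DPP7, FASN, ACADVL, SPCS3 and MAGOHB had a higher share in shPCBP1 (0.0971% of the genes tested) and TASOR and STRAP a lower one (0.0324%). Before adjustment, 946 genes had p under 0.05.

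Most genes moved little and slightly downward. The median difference was -0.42 percentage points and -0.11 on the log2 ratio scale, and 59.1% of genes had a lower share in shPCBP1. In 464 genes (7.51%) every shPCBP1 library was above every shCtrl library, and in 929 genes (15.0%) every one was below.

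In DPP7, ACADVL and FASN, transcripts with a whole intron contributed to the higher share. DPP7 encodes a lysosomal dipeptidyl peptidase. Its retained-intron share was 59.2%, 60.5% and 58.4% in shCtrl and 79.7%, 81.7% and 79.9% in shPCBP1 (59.4% ± 1.08 and 80.5% ± 1.098, SD, n = 3 libraries per group). The groups lay far apart, and the difference of 21.1 points had an adjusted p of 0.0159 (limma). Its transcript DPP7-225, which keeps the introns of 70 and 80 bases printed above, was at 7.51, 8.98 and 10.0 TPM in shCtrl and 28.0, 28.0 and 23.3 TPM in shPCBP1. The gene's only protein-coding transcript went the other way, from 38.5, 39.9 and 39.3 TPM to 16.7, 14.5 and 15.2 TPM. By DESeq2 on summed counts, the protein-coding class of DPP7 fell by 1.27 on the log2 scale (adjusted p 6.00e-58), and its retained-intron class, which has 13 transcripts, fell by 0.39 (adjusted p 3.05e-08). On the TPM scale the retained-intron class was not lower, at 56.0, 61.2 and 55.1 in shCtrl and 65.5, 64.8 and 60.5 in shPCBP1, with overlapping groups. With all transcripts of DPP7 in the denominator the difference in share was 11.96 points (limma adjusted p 0.177), and without the trend its adjusted p was 0.0634, so the call was lost in both.

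ACADVL encodes the very long-chain acyl-CoA dehydrogenase of mitochondrial fatty acid oxidation. Its share was 68.6%, 69.0% and 64.3% in shCtrl and 86.2%, 83.8% and 83.0% in shPCBP1, a difference of 17.0 points (limma adjusted p 0.0402) with no overlap. The protein-coding class fell by 1.44 on the log2 scale (DESeq2 adjusted p 1.82e-78), while the retained-intron class had a log2 difference of 0.03 (adjusted p 0.806). ACADVL-203, the main coding transcript, dropped from 61.1, 64.8 and 64.3 TPM to 7.05, 9.54 and 12.02 TPM. ACADVL-216, which keeps the 267-base intron printed above, was at 29.4, 27.6 and 28.3 TPM and then at 37.7, 31.9 and 33.7 TPM.

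FASN encodes fatty acid synthase. Its share was 15.8%, 14.7% and 14.4% in shCtrl and 34.5%, 34.4% and 36.2% in shPCBP1, a difference of 20.1 points (limma adjusted p 0.00614). Its protein-coding class fell by 0.77 on the log2 scale (DESeq2 adjusted p 3.45e-116) and its retained-intron class rose by 0.40 (adjusted p 0.00288). Most of the gain sat in FASN-203, a 424-base transcript with no whole intron, at 4.04, 4.65 and 4.99 TPM in shCtrl and 24.9, 21.8 and 27.3 TPM in shPCBP1. FASN-202, which keeps the 101-base intron, was at 13.9, 14.3 and 11.2 TPM and then at 14.0, 17.8 and 17.7 TPM, with overlapping groups. With the leading retained-intron transcript only, the FASN difference was 7.68 points (limma adjusted p 0.0810), under which it was not called.

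The other 5 called genes rested on transcripts without a whole intron. CREB1, a cAMP-responsive transcription factor, had a share of 1.03%, 1.66% and 0.940% in shCtrl against 23.5%, 23.0% and 25.8% in shPCBP1 (22.9 points, limma adjusted p 0.00403). The change came from CREB1-216, a 580-base transcript listed at 0 throughout shCtrl and at 2.22, 2.86 and 2.97 TPM in shPCBP1. MAGOHB, a core protein of the exon junction complex, had a share of 1.25%, 1.30% and 1.21% in shCtrl against 10.9%, 11.9% and 9.60% in shPCBP1 (9.57 points, adjusted p 0.00403). Here too the transcript behind it, MAGOHB-207, was at 0 throughout shCtrl, and the retained-intron level rose by 1.17 on the log2 scale (DESeq2 adjusted p 0.000131). SPCS3, a subunit of the signal peptidase, had a share of 11.8%, 11.6% and 12.2% against 24.2%, 24.99% and 22.0% (11.9 points, adjusted p 0.0402), through SPCS3-204. That gene has an annotated antisense partner, SPCS3-AS1, and the sources used here do not say whether reads were assigned by strand.

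In the opposite direction, TASOR, a subunit of the heterochromatin-silencing HUSH complex, had a share of 20.2%, 28.3% and 13.3% in shCtrl against 1.07%, 0.790% and 1.28% in shPCBP1 (-19.6 points, limma adjusted p 0.0184). TASOR-208, with 26 bases outside the coding exons, was at 2.86, 4.16 and 1.04 TPM in shCtrl and listed at 0 in all shPCBP1 libraries. STRAP, a WD-repeat protein of the SMN complex, had a share of 7.09%, 9.77% and 8.69% against 1.44%, 1.97% and 1.25% (-6.96 points, adjusted p 0.0144). STRAP-205, with 48 such bases, went from 8.13, 10.2 and 10.6 TPM to 1.26, 0.603 and 0.630 TPM. The retained-intron level fell by 5.79 in TASOR and by 3.01 in STRAP on the log2 scale (DESeq2 adjusted p 1.74e-14 and 1.06e-22), and that of CREB1 was too low for DESeq2 to give an adjusted p. For CREB1, SPCS3, TASOR and STRAP the protein-coding class did not pass the DESeq2 test. MAGOHB's rose by 0.28 on the log2 scale (adjusted p 0.00634).

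The share of a short transcript depends on the length scaling. With estimated counts in place of TPM, the difference was 1.88 points for CREB1, 1.51 for FASN, 0.902 for SPCS3, 3.47 for MAGOHB, -2.70 for TASOR and -1.85 for STRAP, all under the 5-point threshold, and 14.1 points for DPP7 with an adjusted p of 0.102. ACADVL was the 1 gene called on both scales. Without the trend, ACADVL and SPCS3 also lost their calls (adjusted p 0.110 for each). Leaving out 1 library left between 2 and 5 genes called. The lowest number came without shPCBP1 replicate 3, and DPP7, ACADVL and SPCS3 lost their adjusted p under 0.05 whichever library was left out. CREB1 and MAGOHB kept theirs in each such fit. Among DPP7 (20.4 to 21.6 points), ACADVL (15.6 to 17.9) and SPCS3 (11.2 to 12.7), the differences themselves moved little. FASN lost its call without shCtrl replicate 3 (19.8 points, adjusted p 0.0517) or shPCBP1 replicate 3 (19.5 points, 0.0582). TASOR lost it without shCtrl replicate 1 or any 1 shPCBP1 library (-19.8 to -19.5 points, adjusted p 0.0898 to 0.118), and STRAP without shCtrl replicate 2 or 3 or shPCBP1 replicate 1 or 3 (-6.90 to -6.33 points, 0.0632 to 0.0872).

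edgeR's quasi-likelihood test on the counts, with the same 5-point rule on TPM shares, called 307 genes, 102 higher (1.65%) and 205 lower (3.32%). They included 7 of the 8, all but MAGOHB (edgeR adjusted p 0.0553). The edgeR calls were thus mostly toward a lower share, whereas the limma calls were mostly higher. At the 5-point threshold, STRAP was the called gene nearest to it on the inside. The nearest gene outside with an adjusted p under 0.05 was NFATC3, a calcium-regulated transcription factor, at -2.58 points.

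**Figure D2:**
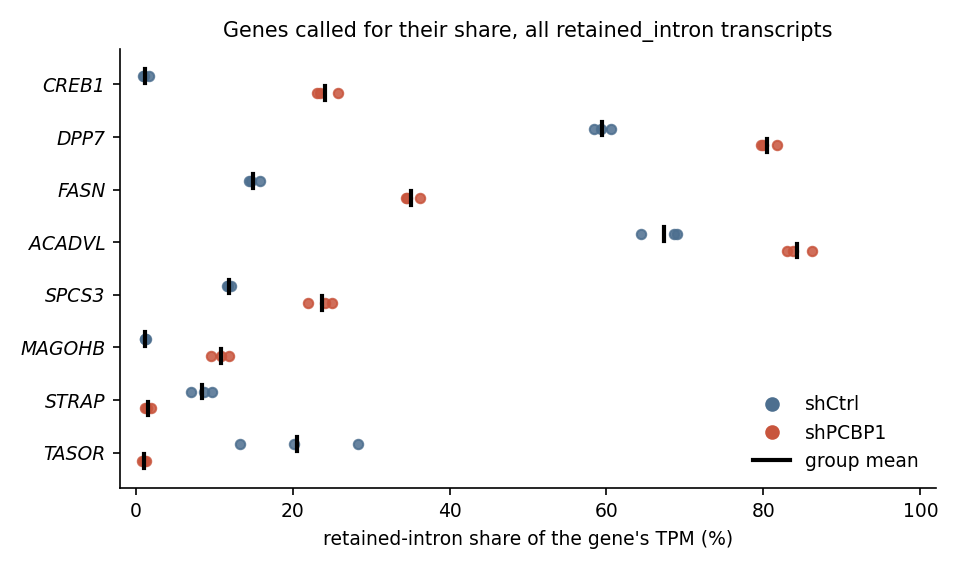
Retained-intron share of the TPM of each gene (x axis, %) in every library for the 8 genes called, with 3 shCtrl and 3 shPCBP1 points per gene and a bar at each group mean. The groups do not overlap in any of the 8 genes, and DPP7 and ACADVL start from shares above 50% in shCtrl.

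Because the class mixes kinds of transcript, the shares were recomputed with only those retained-intron transcripts that hold a whole intron, an alternative added after the data were seen. Of 3308 genes tested, 16 were called by limma, 15 with a higher share in shPCBP1 (0.453%) and 1 with a lower share (0.0302%). DPP7, ACADVL and FASN were among them and the other 13 were not among the 8. These calls were not stable: none of the 16 kept an adjusted p under 0.05 when any 1 library was left out (adjusted p 0.0545 to 0.182). The differences themselves kept their sign and most of their size in each of those fits, for example 29.2 to 33.6 points for ANKRD13B and 12.2 to 14.0 points for TRMT112. edgeR called 159 of the same 3308 genes, 81 higher and 78 lower, with 14 of the 16 among them. Its calls were thus split nearly evenly by direction, whereas 15 of the 16 limma calls were higher. CLPTM1L and ADAM15, whose differences on counts were 0.730 and 2.003 points, were not called by edgeR. On counts the difference also shrank to 0.904 points in FASN, -2.17 in ZNF316, 3.93 in BCKDHA and 4.60 in WDR46, all under the 5-point threshold, and to 11.7 points in SARS2 and 14.5 in DPP7. Over all 3308 genes the median difference was -0.205 points and 58.0% had a lower share.

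Among the 15, DCXR, a carbonyl reductase of the pentose and glucuronate pathway, had a whole-intron share of 37.3%, 34.4% and 37.8% in shCtrl against 55.1%, 54.7% and 54.5% in shPCBP1 (18.3 points). BCKDHA, a subunit of the branched-chain ketoacid dehydrogenase, was at 2.90% ± 0.891 in shCtrl and 12.6% ± 1.34 in shPCBP1 (SD, n = 3). NAPRT, which starts NAD synthesis from nicotinic acid, was at 42.1% ± 2.53 and 62.2% ± 1.95, and the transporter-like MFSD10 at 40.3% ± 0.934 and 56.7% ± 1.45. In each of these genes every shPCBP1 library was above every shCtrl library. TFR2, transferrin receptor 2, which senses iron-loaded transferrin in liver and erythroid cells, had shares of 31.2%, 32.3% and 28.4% against 46.3%, 46.5% and 45.8%.

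TRMT112, an activator of several methyltransferases that act on tRNA and ribosomes, had a share of 14.6%, 12.6% and 16.3% in shCtrl against 27.5%, 27.9% and 27.3% in shPCBP1. The transcript TRMT112-205 with the 89-base intron was at 16.8, 12.3 and 20.7 TPM and then at 41.1, 44.2 and 39.4 TPM. WDR46, a nucleolar protein of ribosome maturation, had a share of 13.3%, 11.4% and 13.4% against 23.3%, 23.8% and 23.4%. The WDR46-235 transcript, which keeps the 122-base intron, was at 5.90, 4.70 and 6.21 TPM and then at 15.4, 16.1 and 15.7 TPM, with the groups far apart, and its retained-intron level rose by 1.12 on the log2 scale (DESeq2 adjusted p 1.93e-10). SARS2, the mitochondrial seryl-tRNA synthetase, rose by 22.7 points and ANKRD13B, an ankyrin-repeat protein that binds ubiquitinated receptors, by 31.9 points, the largest difference of the 16. YDJC and the metalloprotease ADAM15 rose by 15.2 and 16.6 points. The lone fall was ZNF316, a zinc-finger gene, at 22.7%, 28.3% and 23.0% in shCtrl and 10.8%, 9.79% and 7.34% in shPCBP1.

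The 15 genes were selected for a rise of this ratio, so a movement of at least 1 side was built in. The counts that follow describe the selected genes and are not a test. In 13 of them the protein-coding class of the gene fell by the DESeq2 test at an adjusted p under 0.05, and in WDR46 and CLPTM1L it did not pass. Of all 11930 protein-coding features tested, 1409 fell at that threshold. The TPM of whole-intron transcripts was higher in every shPCBP1 library than in every shCtrl library in 10 genes, and lower in every one in TFR2. In DCXR the whole-intron transcripts overlapped between groups, at 71.9, 63.6 and 65.6 TPM in shCtrl and 64.0, 68.9 and 72.4 TPM in shPCBP1, while the coding transcripts went from 121, 121 and 108 TPM to 52.2, 57.0 and 60.6 TPM. In WDR46, whose whole-intron transcripts were at 9.58, 7.58 and 9.49 TPM and then at 19.1, 19.9 and 18.7 TPM, the coding transcripts were at 62.6, 59.1 and 61.1 TPM and then at 62.7, 63.7 and 61.3 TPM.

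**Figure D3:**
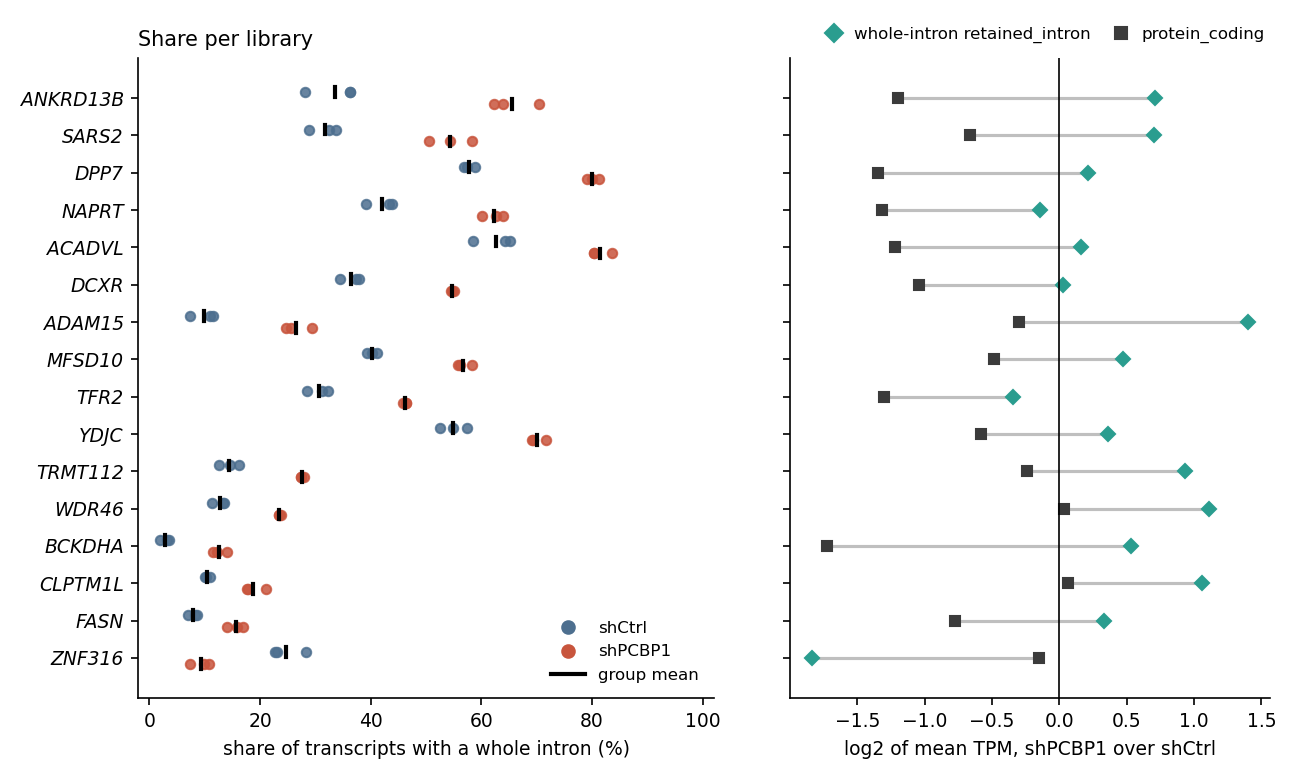
Left, share of whole-intron transcripts (x axis, %) in each library for the 16 genes called, with bars at group means. Right, log2 ratio of mean TPM, shPCBP1 over shCtrl (x axis), for whole-intron transcripts (diamonds) and protein-coding transcripts (squares) of the same genes; in WDR46 and CLPTM1L the coding squares lie near 0, and in BCKDHA the coding square lies farthest to the left.

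A share cannot tell which side of the ratio moved, so summed counts per gene and class were also compared with DESeq2 (Wald test, called where the adjusted p was under 0.05, the log2 fold change exceeded 1 in either direction and normalized counts averaged more than 10). Of 4882 retained-intron features given an adjusted p, 119 were called, 29 higher and 90 lower in shPCBP1. Over all 25723 features of any class, 0.735% were called higher and 1.29% lower. The protein-coding class had 28 called higher and 110 lower of 11930. Without the size threshold, 195 retained-intron features rose and 571 fell, whereas 2530 protein-coding features rose and 1409 fell. The median log2 fold change was -0.12 for retained-intron features and 0.03 for protein-coding features, with 61.6% and 44.2% below 0.

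**Figure D4:**
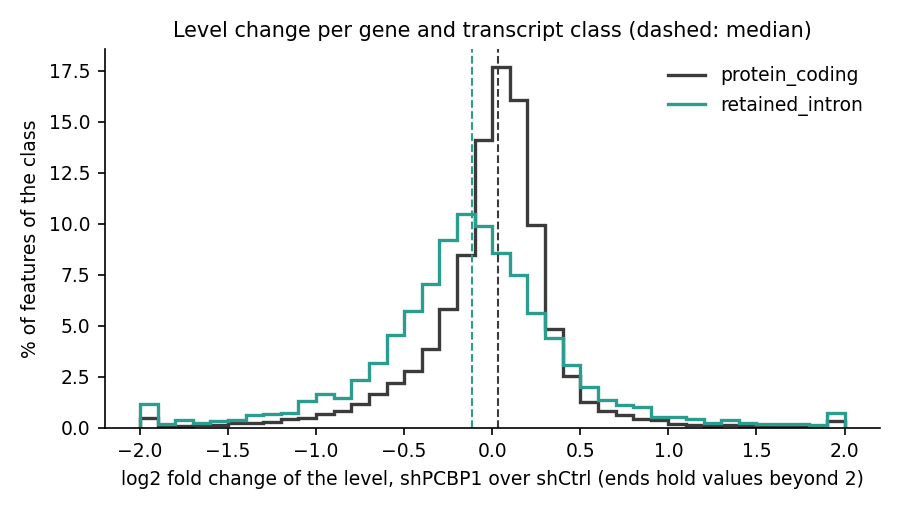
Distribution of the log2 fold change of the level, shPCBP1 over shCtrl (x axis, end bins hold values beyond 2), as percent of the features of each transcript class (y axis), with dashed lines at the medians. The retained-intron median lies at -0.12 and the protein-coding median at 0.03.

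Of the 119 features, 116 belong to genes that also have coding transcripts. Among their 29 rises, the protein-coding class of the same gene rose in 6, fell in 1 and did not pass the test in 22. Among their 87 falls it fell in 33, 10 of which were called at the same thresholds, rose in 13, and did not pass or was not tested in the rest. With only whole-intron transcripts counted, 63 features were called, 15 higher and 48 lower, where all features together gave 0.737% higher and 1.28% lower. The fewest and most calls without 1 library were 89 and 148.

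The largest rises included PSMC3, an ATPase of the proteasome cap, whose retained-intron counts were 154, 35.5 and 148 in shCtrl and 425, 534 and 344 in shPCBP1 (log2 fold change 1.94, SE 0.440, DESeq2 adjusted p 0.000131). No shPCBP1 library overlapped with shCtrl, although shCtrl replicate 2 was far below the other two. The transcript behind it, PSMC3-211, holds no whole intron. TRPV6, an epithelial calcium channel, had 64.8, 100 and 127 counts against 329, 353 and 317 (1.77, SE 0.285, adjusted p 1.84e-08), from a transcript with a 359-base intron and almost no coding partner. A gene annotated on the opposite strand overlaps TRPV6. WDR36, a ribosome-processing factor, rose by 1.61 (adjusted p 5.81e-06) and RNF121, a ubiquitin ligase of the secretory pathway, by 1.38 (adjusted p 7.58e-06), both through transcripts without a whole intron. REXO1, an RNA exonuclease relative, rose by 1.25 (adjusted p 1.38e-05). Its transcript REXO1-202 keeps introns of 70 and 85 bases and was at 4.15, 5.65 and 4.75 TPM in shCtrl and 12.5, 11.2 and 8.15 TPM in shPCBP1. Here the microRNA gene MIR1909 overlaps it on the same strand.

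Other rises were less well supported. ZC3HC1 rose by 1.44 and kept its call whichever library was left out (1.06 to 1.73). MAK16, a ribosome-biogenesis factor, rose by 1.34 but lost its adjusted p under 0.05 without shPCBP1 replicate 1 (0.0564) or replicate 2 (0.0577). OPA1, the mitochondrial inner-membrane fusion GTPase, with a difference of 1.39, lost it without shCtrl replicate 1 or 2 or shPCBP1 replicate 1 or 2 (0.94 to 1.59, adjusted p 0.0667 to 0.275). PCNX4 (1.32) lost its call in every such fit but the one without shCtrl replicate 1 (0.91 to 1.49, 0.0523 to 0.193). NOL12 (1.26) lost it without shCtrl replicate 2 or 3 or shPCBP1 replicate 3 (0.74 to 1.13, 0.131 to 0.258). All of these p-values are from DESeq2, and edgeR called none of the 5 at an adjusted p under 0.05. The NOL12 transcripts overlap another gene on the same strand.

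Falls were larger in number and in counts. NFATC3 and an unnamed locus, ENSG00000283782, were listed at 0 in all shPCBP1 libraries. The NFATC3 retained-intron class had 183, 293 and 230 normalized counts in shCtrl and was at least 192-fold lower in shPCBP1, counting a floor of 3 counts over that group. Its coding transcripts did not pass the test. NFATC3-208, the transcript concerned, holds no whole intron and overlaps another gene on the same strand.

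Among the falls with the highest counts, SRRM2, a large serine- and arginine-rich protein of the spliceosome, had 7274, 7602 and 5202 retained-intron counts in shCtrl and 3242, 2849 and 3649 in shPCBP1 (log2 fold change -1.04, SE 0.134, adjusted p 5.58e-13, DESeq2), with no overlap. Its coding class rose by 0.34 (adjusted p 1.68e-14). The transcript with the largest fall was SRRM2-217, at 34.8, 36.8 and 25.2 TPM and then at 11.2, 10.3 and 12.4 TPM, within a class that went from 83.5, 92.4 and 59.7 TPM to 36.9, 35.2 and 44.6 TPM. It is a 3-exon transcript at the 3′ end of the gene with 978 bases outside coding exons and no whole intron. With whole-intron transcripts alone the difference in SRRM2 was -0.26 (adjusted p 0.458).

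HDAC7, a class IIa histone deacetylase, had 4386, 5555 and 4030 counts against 1926, 1885 and 2141 (-1.23, SE 0.118, DESeq2 adjusted p 4.15e-23), and its coding class fell by 0.38 (adjusted p 5.21e-19). AKAP8L, a nuclear A-kinase anchor, had 3222, 3263 and 2639 counts against 1452, 1336 and 1611 (-1.05, adjusted p 6.31e-19), while its coding class did not pass. In both genes no library of one group reached the other. With whole-intron transcripts alone the falls in HDAC7 and AKAP8L remained, at -1.07 and -1.03. HDAC7-217 keeps 5 whole introns, and AKAP8L-239 and AKAP8L-237 keep 2 each. In AKAP8L the largest fall was in AKAP8L-237, at 1.99, 4.39 and 1.105 TPM in shCtrl and listed at 0 in all shPCBP1 libraries. AKAP8L-239 went from a mean of 3.17 TPM to 2.35 TPM. Genes on the opposite strand overlap both genes. SELENBP1, a methanethiol oxidase, had 1906, 1662 and 1842 counts against 867, 1000 and 828 (-1.01, adjusted p 1.80e-17). Its coding class fell by 1.998 on the log2 scale, more than its retained-intron class, and its share rose by 20.35 points. MRC2, a collagen endocytic receptor, fell by 1.096 (adjusted p 1.08e-24) with no passing difference in its coding class. The transcript behind it, MRC2-205, holds no whole intron and overlaps a gene on the opposite strand.

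Calls close to the fold threshold crossed it when a library was left out. SRRM2 was at -0.98, -0.94 and -0.96 without shCtrl replicate 1, shCtrl replicate 2 and shPCBP1 replicate 2. AKAP8L was at -0.999 and -0.99 without shCtrl replicate 2 and shPCBP1 replicate 2. SELENBP1 lay between -0.99 and -0.95 without shCtrl replicate 1 or 3 or shPCBP1 replicate 1 or 3. Their adjusted p-values stayed at or below 1.34e-07 (DESeq2) in those fits.

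Less abundant falls covered a range of functions. ATG16L2, an autophagy protein, fell by 2.44, RCC1L, a factor of mitochondrial ribosome assembly, by 2.03, the ceramide synthase CERS5 by 1.88, MIDEAS, a scaffold of a histone deacetylase complex, by 1.80, and ZNF316 by 1.76. The hyaluronidase CEMIP2 fell by 1.73 and the metalloproteinase MMP17 by 1.65. DESeq2 adjusted p-values for these 7 were between 1.83e-08 and 3.10e-05. The coding class also fell in ATG16L2 (-0.75, adjusted p 0.0156) and MMP17 (-0.92, 1.05e-09). It rose in RCC1L, CERS5, MIDEAS and CEMIP2 at an adjusted p under 0.05 and did not pass in ZNF316. The transcripts with the largest fall in RCC1L, CERS5, CEMIP2 and MMP17 hold no whole intron. With whole-intron transcripts alone CERS5 lost its call (-0.94, DESeq2 adjusted p 0.106). RCC1L-206 was listed at 0 in all shPCBP1 libraries and at 9.27, 7.13 and 3.36 TPM in shCtrl, where the 3 libraries differed widely. CELSR3, a cadherin, was called at -1.76 (adjusted p 0.0240) but lost its call without any 1 library other than shPCBP1 replicate 2 (-1.86 to -1.29, adjusted p 0.0633 to 0.130).

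Among splicing regulators, the spliceosome list gave falls and no rise. Of 34 members tested, 8 fell at a DESeq2 adjusted p under 0.05 and 0 rose, with 26 not passing. Over all 4738 such features with a coding partner, 4.03% rose and 11.6% fell. The list's median log2 fold change of -0.12 was the same as that over all genes. SNRNP25 fell by 0.97 (adjusted p 0.000140), LUC7L by 0.97 (4.95e-08), RNPC3 by 0.63 (0.0257) and SF3B2, a branch-point recognition protein, by 0.47 (0.000243). LUC7L2, DDX39B and RBM39 fell by 0.43, 0.29 and 0.29 (4.95e-08 to 0.0289), and in LUC7L2 the groups overlapped. In DDX39B, a helicase of spliceosome assembly and mRNA export, the counts went from 23720, 23921 and 22054 to 18783, 18209 and 19861, with no overlap.

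SR proteins, which bind exonic enhancers and control many of their own transcripts through retained introns and poison exons, were split. Of 15 members tested, 2 rose, 4 fell and 9 did not pass (DESeq2, median log2 fold change -0.13). Over all 4738 retained-intron features with a coding partner, 4.03% rose and 11.6% fell, and the median over all genes was -0.12. SRSF1 had 744, 671 and 501 retained-intron counts in shCtrl and 1344, 950 and 1066 in shPCBP1, a rise of 0.81 (adjusted p 0.000178). The kinase SRPK1 rose by 0.36 (0.0232). SRSF9 fell by 0.42, SRSF5 by 0.36, TRA2A by 0.36 and SRSF11 by 0.16, with adjusted p-values between 0.000312 and 0.0494. None of the SR group was called for its share.

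Iron and heme genes gave 1 rise and 4 falls among 19 tested (DESeq2, median log2 fold change -0.11). The median was near the -0.12 over all genes, where 4.03% of the 4738 retained-intron features with a coding partner rose and 11.6% fell. ALAD, the second enzyme of heme synthesis, had 269, 335 and 301 retained-intron counts in shCtrl and 495, 478 and 548 in shPCBP1, a rise of 0.75 (adjusted p 7.93e-05) without overlap. PPOX, which also acts in heme synthesis, fell by 0.56 (0.00801). The receptors TFR2 and TFRC fell by 0.47 (0.000214) and 0.25 (0.00428). In TFR2 the coding class fell further, by 1.23, so its retained-intron level fell while its share rose.

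Of 18 RNA decay and nuclear surveillance factors tested, 17 did not pass, 0 rose and 1 fell (median log2 fold change -0.15). That was ZCCHC8 of the nuclear exosome targeting complex, which fell by 0.32 (DESeq2 adjusted p 0.00516). Among all retained-intron features with a coding partner, 4.03% rose and 11.6% fell. Of the genes that the study examined by RT-PCR, a list it chose on its own splicing results and so not independent evidence, 4 were tested. CARM1, an arginine methyltransferase, rose by 1.05 (adjusted p 0.00372), with 96.8, 118 and 135 counts against 288, 272 and 166. Its transcript with a 103-base intron was at 0.835, 0.880 and 2.29 TPM and then at 5.43, 5.96 and 3.15 TPM. CARM1 fell under the fold threshold without shCtrl replicate 1, shPCBP1 replicate 1 or shPCBP1 replicate 2 (0.91 to 0.96). It also lost its adjusted p under 0.05 without shPCBP1 replicate 1 (0.0571) or replicate 2 (0.0513) and with edgeR (0.0546). With whole-intron transcripts alone CARM1 was called, at 1.91 (DESeq2 adjusted p 0.000579). The CARM1 event that the study examined by RT-PCR is a skipped exon, which is not the retained intron measured here. GOLGA2 fell by 0.25 (adjusted p 0.0297).

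None of the relatives of PCBP1 was called for its share. The PCBP2 share was 3.59%, 3.83% and 3.24% in shCtrl and 2.95%, 3.19% and 2.81% in shPCBP1 (-0.573 points, limma adjusted p 0.361). Its retained-intron level fell by 0.37 (DESeq2 adjusted p 0.00917) and its coding level by 0.24 (3.00e-15). PCBP4 had a share of 7.30% ± 0.979 against 7.28% ± 0.491 (SD, n = 3), and HNRNPK of 2.62% ± 0.384 against 2.15% ± 0.192, and neither share nor retained-intron level passed its test. Their coding levels did: PCBP4 fell by 0.55 (DESeq2 adjusted p 0.00208) and HNRNPK rose by 0.15 (0.00211). The PCBP4 transcripts overlap another gene on the same strand. In the hnRNP and poly-C binder list as a whole, 1 of 19 tested rose (TAF15, 0.22, DESeq2 adjusted p 0.0126) and 1 fell (PCBP2). The shares over all retained-intron features with a coding partner were 4.03% and 11.6%.

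The 5 genes with the most abundant retained-intron transcripts were RPL14, RPS23, RPS28, OAZ1 and EEF1A1. RPL14 had 2625, 2600 and 2562 TPM in the class in shCtrl and 2683, 2665 and 2671 in shPCBP1, nearly all from RPL14-208. Its share was 97.6% and then 97.2%. RPS23 was at 1758, 1758 and 1761 TPM against 1609, 1636 and 1700, and RPS28 at 1228, 1342 and 1117 against 1263, 1333 and 1374. OAZ1, the antizyme that limits polyamine synthesis, was at 1265 TPM on average in shCtrl and 1280 in shPCBP1, and EEF1A1, an elongation factor, at 800.3 and 834 TPM. The leading transcripts of RPL14, RPS23, RPS28 and OAZ1 hold no whole intron and have 13, 99, 22 and 23 bases outside coding exons, while that of EEF1A1 keeps 1 whole intron. None of these 5 genes passed limma's share test. Ribosomal protein and EEF1A1 transcripts have near-identical processed copies in the genome, so the split between copies and isoforms is uncertain.

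The introns kept by genes with a rising whole-intron share were short and GC-rich. The 19 whole introns in the leading transcripts of the 15 genes had a median length of 108 bases (70 to 543), a median GC content of 68.5%, and 42% C among their last 50 bases. The 5985 introns of all 3308 genes tested had medians of 345 bases, 53.9% GC and 30% C. Under 150 bases were 78.9% of the 19 and 23.9% of all, and 3 or more runs of CCC in the last 50 bases stood in 36.8% and 18.6%. These are descriptions with no test, and introns of a transcript share their gene.

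Introns of genes with falling levels were also GC-rich. Genes called lower in whole-intron level had 76 such introns with a median of 312 bases, 60.5% GC and 34% C, so they too lay above the background in GC and C. Genes called higher in level had 19, with medians of 123 bases, 68.0% GC and 40% C. For the wider edgeR share calls, made with all retained-intron transcripts, the whole introns described need not belong to the transcripts that moved. Those of genes with a higher share had medians of 181 bases, 61.2% GC and 38% C. In genes with a lower share the medians were 419 bases, 53.5% GC and 30% C. The printed ends differ. Those of the DPP7 introns hold runs of up to 6 C shortly before the final AG, and the FASN end has a single CCC. The second ANKRD13B intron has a run of T near its end. Ends without CCC in SARS2 and CLPTM1L were not among those printed.

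**Figure D5:**
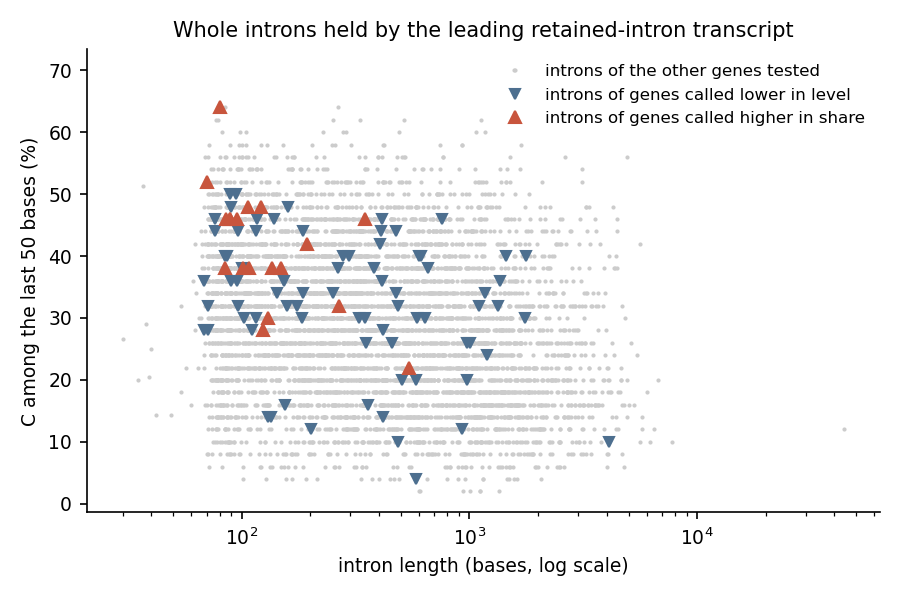
Percent C among the last 50 bases of each whole intron (y axis) against intron length in bases (x axis, log scale), for genes called higher in whole-intron share (upward triangles), genes called lower in whole-intron level (downward triangles) and all other genes tested (grey dots). The upward triangles lie mostly under 150 bases and above the background median of 30% C, and the downward triangles spread over most of the grey field.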

How the data were processed

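Poly-A RNA of 6 K562 libraries had been quantified per transcript by the authors with Salmon 1.10.2 on hg38, per the labels. The deposited files hold TPM, scaled by Salmon on effective transcript length, and estimated counts (expected counts), which are not normalized. The annotation release behind the Salmon index, the strand setting and any bias correction were not given in the sources used here. Transcripts were matched by ID to GENCODE 44 on GRCh38, which gave names, types and coordinates; those left unmatched held at most 0.147% of the counts of a library. Salmon divides reads that fit several isoforms by an estimate, so values of overlapping transcripts of a gene are not independent, and that uncertainty was not analysed here. No read spanning an intron was counted.

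Per gene, the log2 ratio of retained-intron to protein-coding TPM, with a pseudocount of 0.1 TPM on each, was tested two-sided with limma 3.58.1, using the mean log2 total TPM as trend. Estimated counts summed per gene and class (retained-intron, protein-coding, other) were rounded and tested with DESeq2 1.42.0 (features with a summed count of at least 10, group as the only term). p-values were adjusted over all genes or features tested by the Benjamini-Hochberg method. Percentages per library were compared with an exact permutation test (SciPy 1.17.1). edgeR 4.0.16 was an alternative. R was 4.3.3 and Python 3.11.15. A whole intron is an intron of a protein-coding transcript, of at least 30 bases, that lies inside 1 exon of the retained-intron transcript. The scripts were tested on simulated data.

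Genes named by the share rule are all called genes with a mean total TPM of at least 5 and groups that do not overlap, called members of the gene lists, PCBP2, PCBP4, HNRNPK, the 5 genes with the highest retained-intron TPM, and the genes nearest to the 5-point threshold. Level calls averaging at least 100 normalized counts, by largest change or highest count, and all called whole-intron genes, were added after the data were seen. Some genes that these rules select are not reported here. Members and lists were chosen with earlier results of these data known. Libraries of a group differed by more than sampling noise (chi-square per degree of freedom 6.48 to 16.4), so each counted as 1 sample. Alternatives covered other pseudocounts, count minimums, thresholds, denominators, scalings, tests, a replicate block and leaving out each library.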

Additional observations from a re-analysis of the deposited data

How the results depend on the processing

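The number of genes called for their share was 8 and became 39 with a pseudocount of 1 TPM, 22 with at least 50 counts per class, 20 with the leading transcript only, 307 with edgeR, 4 with counts in place of TPM, 16 with whole introns only and 2 to 5 without 1 library. The 16 calls on whole introns became 71 with a pseudocount of 1 TPM, 159 with edgeR, 4 with counts and 0 in each fit without 1 library (0 to 0), where 454 to 589 genes had an unadjusted limma p under 0.05. The causes were not tested, other than that leaving out a library leaves fewer samples. The 119 level calls became 766 with no size threshold and 63 with whole introns only, and were otherwise between 87 and 148. The class percent moved from -0.151 to -0.384 points with counts in place of TPM. Called genes that reversed with whole introns only were SPCS3 (-0.891 points, level -0.35), MAGOHB (-0.247 points, level -0.14), PSMC3 (-0.140 points, level -0.22) and MAK16 (-1.54 points, level -1.75), and the levels of RPL14 (-0.13) and OAZ1 (-0.28) also turned, since the transcripts behind them hold no whole intron and leave the sum. PCBP4, with a share difference near 0, reversed with counts (0.270 points), with all transcripts in the denominator (0.00175) and when a library was left out (-0.588 to 0.291), and the level of ACADVL without shCtrl replicate 3 (-0.021 to 0.071 over such fits). PCBP1 stayed between -2.49 and -2.42 without any 1 library.

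With a replicate block no gene was called for its share (0 calls, 768 genes at an unadjusted p under 0.05) and none for its whole-intron share (0 calls, 511 genes), and 110 features were called for their level. Same-numbered libraries of the 2 groups deviated from their group means with correlations of -0.0188, -0.0057 and -0.0467, and no library correlated best with its own number, so samples of one number were not treated as pairs. Depth limits the features with few counts: 3428 of 9606 genes could not be compared for their share.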
